A study of Mus musculus with 16 samples.

Results

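The measurements concern 32 genes of cholesterol and fatty acid synthesis, of the 27179 gene IDs in the deposited table. The genes were taken by name from a list: 8 act in the mevalonate pathway, 11 lead from squalene synthesis to cholesterol, 4 regulate these pathways or move cholesterol within the cell, and 9 belong to fatty acid synthesis. Each of the 32 was found under 1 ID, and all of them passed the filter on low values in every comparison below. The 16 libraries come from MTOs, mouse tumour organoids grown as epithelial cultures in drops of basement membrane extract, of which there were 4 lines. Altered medium was of 2 kinds. The AKP lines MTO54 and MTO220, labelled triple mutants with wild-type Tgfbr2, were grown for 7 days without galunisertib and with TGFβ1 (TGF-β medium, labelled 5 ng/µl). The APT lines MTO100 and MTO101, labelled triple mutants of another genotype, were grown for 7 days without EGF. Every line was also grown for 4 days in full medium, which held EGF at 50 ng/ml, the BMP antagonist noggin at 100 ng/ml and galunisertib, an inhibitor of the TGF-β type I receptor kinase, at 1 µM. TGF-β medium kept the EGF and the noggin, and medium without EGF kept the noggin and the galunisertib. Medium and days in culture differ together, so they cannot be told apart. By the usual reading of the letters, which the labels do not spell out, all 4 lines carry lesions in Apc and Trp53, and the APT lines carry one in Tgfbr2 as well. Every line was sequenced in each of its media at 2 consecutive passages, which make up pool 1 and pool 2. The pools also differ in the prefix of their column names. P-values therefore measure spread within these cultures and not between animals. In comparisons of media that span both lines of a genotype, a term for the line removes differences in level between the lines. What remains there is the spread between passages and the difference between the responses of the lines. The comparison of AKP with APT in full medium uses line means and holds the spread between these means. Comparisons of 1 line with the other of its genotype, or within 1 line, hold only the spread between passages.

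Cells make cholesterol from acetyl-CoA through mevalonate, isoprenoid diphosphates, squalene and lanosterol. The transcription factor encoded by Srebf2 drives most genes of that route when sterols in the endoplasmic reticulum are low, and INSIG proteins hold it back when sterols are high. Srebf1 encodes the related factor that acts more on fatty acid genes, whose products build palmitate from acetyl-CoA and then elongate and desaturate it. Intestinal epithelium is a site of active cholesterol synthesis, and growing cells need both products for membranes. Isoprenoid diphosphates also feed protein prenylation, ubiquinone and dolichol.

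Reads on genes ranged from 17056053 to 22251986 per library, and 16791 to 19375 genes held at least 1 read. The deposited values are reads divided by a size factor and are called normalised reads here. The 32 genes together took 0.572% to 0.71% of reads in TGF-β medium, against 0.694% to 0.983% in full medium of the same lines. They took 0.428% to 0.702% of reads without EGF, against 0.511% to 0.849% in full medium of the APT lines. All 10 intestinal epithelial markers were detected in every group, with a summed level of 87334 to 192147 normalised reads in TGF-β medium, 95818 to 123399 without EGF and 82687 to 187157 in full medium. Cdx1, an intestinal transcription factor, was under 10 normalised reads in all 4 libraries in TGF-β medium. The 6 adipocyte markers summed to at most 43.8 in any library. The 8 fibroblast markers summed to 142 to 204 in TGF-β medium against 13.8 to 26.8 in full medium, and to 106 to 516 without EGF against 17.0 to 158 in full medium, with Lum at 0 throughout. The 7 immune markers summed to 84.0 to 97.7 in TGF-β medium against 38.2 to 338 in full medium, and to 226 to 673 without EGF against 34.4 to 218 in full medium, with Cd3e at 0 in the AKP lines. The 6 endothelial markers summed to 45.6 to 99.4 in TGF-β medium against 186 to 1410.3 in full medium, and to 1147 to 1906 without EGF against 404 to 822 in full medium, with Emcn at 0 throughout. The 7 hepatocyte markers summed to 49.7 to 1756 in TGF-β medium against 43.5 to 114 in full medium, and to 111 to 260 without EGF against 148 to 243 in full medium, with Fgb at 0 throughout. Mitochondrial genes took 1.91% to 2.41% of reads in TGF-β medium against 1.39% to 1.68% in full medium, and 2.62% to 4.05% without EGF against 1.74% to 2.09% in full medium, with no overlap in either. The part of these marker lists and of the mitochondrial share in the results was not tested. All 4 MTO220 libraries held Trp53 RNA at 1916 to 4207 normalised reads, against 91.2 to 252 in the other 12, so the AKP genotype of MTO220 rests on its label, and results are also given for MTO54 alone.

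Promoter windows of RefSeq (GRCm38.p6, from 250 bases before to 50 after a start site) were available for 25 of the 32 genes. The sterol response element of textbook targets was searched as TCACNCCAC on both strands, and the CCAAT box, which the factor NF-Y binds beside many such elements, as CCAAT on both strands. Hmgcs1, HMG-CoA synthase, was the 1 gene of the 25 with the sterol element, against 1.41% of the 10344 genes tested in the AKP lines that have a window. A CCAAT box was in 21 of the 25 windows (84%), against 43.52% of those tested genes and 41.06% of all 27025 genes with a window. The E-box CACGTG was in 4 of 25 (16%), against 11.58% of tested genes, and the GC box GGGCGG in 20 of 25 (80%), against 68.46%. A match describes these letters only, and no match of 1 motif overlapped a match of another in these 25 genes. Shown here are the 250 bases before the start site of the gene with the sterol element, of Lss and Fads2, which had the largest falls in TGF-β medium, and of Hsd17b7, the gene that rose there, which was added after its values were seen. Sequences read 5′ to 3′ in the direction of transcription, and capitals mark the sterol element (TCACCCCAC) and the CCAAT box, read here as ATTGG on the other strand.
Hmgcs1, chr13:119690101-119690350, plus strand, GRCm38.p6: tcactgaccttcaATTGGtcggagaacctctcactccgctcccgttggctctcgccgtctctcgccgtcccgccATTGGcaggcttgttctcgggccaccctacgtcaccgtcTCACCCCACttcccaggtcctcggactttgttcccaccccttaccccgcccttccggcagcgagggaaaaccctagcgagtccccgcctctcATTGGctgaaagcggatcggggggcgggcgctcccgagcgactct
Lss, chr10:76531355-76531604, plus strand, GRCm38.p6: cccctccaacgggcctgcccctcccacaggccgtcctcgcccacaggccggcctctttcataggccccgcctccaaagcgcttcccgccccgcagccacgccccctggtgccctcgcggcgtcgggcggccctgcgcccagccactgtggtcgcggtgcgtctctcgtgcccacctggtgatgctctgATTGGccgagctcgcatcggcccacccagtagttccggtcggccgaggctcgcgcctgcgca
Fads2, chr19:10101504-10101753, minus strand, GRCm38.p6: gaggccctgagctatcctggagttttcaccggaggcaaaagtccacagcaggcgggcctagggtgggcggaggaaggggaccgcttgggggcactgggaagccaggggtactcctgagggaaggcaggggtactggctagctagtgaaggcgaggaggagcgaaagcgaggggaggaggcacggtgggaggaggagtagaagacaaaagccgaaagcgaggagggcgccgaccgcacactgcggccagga
Hsd17b7, chr1:169969206-169969455, minus strand, GRCm38.p6: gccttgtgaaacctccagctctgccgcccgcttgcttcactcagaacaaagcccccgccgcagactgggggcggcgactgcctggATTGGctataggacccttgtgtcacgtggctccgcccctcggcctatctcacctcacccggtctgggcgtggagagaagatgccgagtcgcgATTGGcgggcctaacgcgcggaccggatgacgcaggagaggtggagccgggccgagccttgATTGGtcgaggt
The sterol element of Hmgcs1 starts at position -137 from the start site. The 4 windows hold 4, 1, 0 and 3 CCAAT boxes in the order shown, the last of Hmgcs1 lying in the 50 bases after the start site that are not printed.

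Levels of different genes were compared per kilobase of the longest coding transcript. In full medium Fdps, which makes farnesyl diphosphate, stood highest, with a median of 8529 normalised reads per kilobase and a range of 5225 to 13002 over the 8 libraries. Scd2, a stearoyl-CoA desaturase, was next with a median of 5352 and a range of 2522 to 10349, which overlaps that of Fdps. Acat2, the cytosolic acetoacetyl-CoA thiolase, followed at 2327. Ggps1, which makes geranylgeranyl diphosphate, was lowest with a median of 89.7 and a range of 67.5 to 137, and Hsd17b7, a keto-reductase of sterol demethylation, was next to it with 137 and a range of 84.2 to 174. Neighbours in this order overlapped in range, except Stard4 above Sc5d and Acaca above Hsd17b7, and the place of Fdps is uncertain, because 86.4% of the 50-base windows of its transcript occur in other annotated genes, among them a readthrough gene and pseudogenes.

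**Figure D1:**
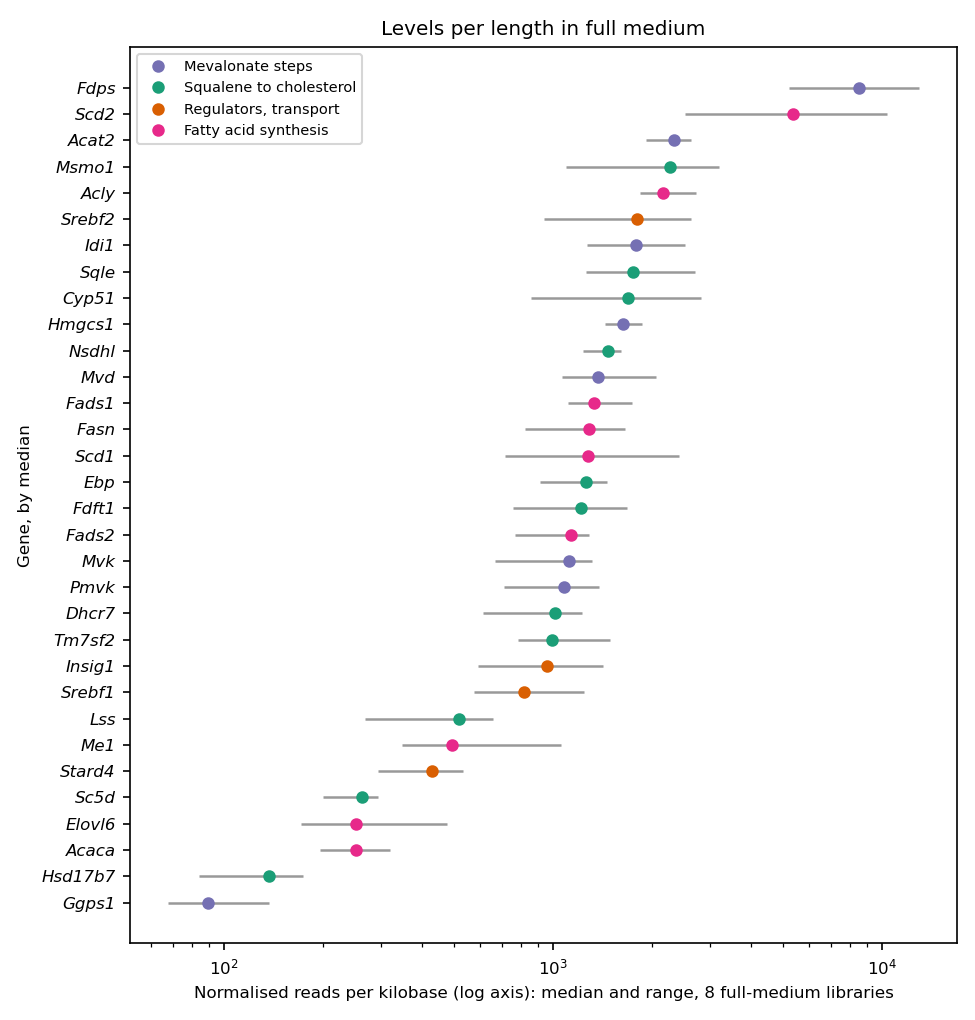
Normalised reads per kilobase (log axis) of the 32 genes in full medium, with the median as a point coloured by role and the range over 8 libraries as a line. Fdps at 8529 and Ggps1 at 89.7 mark the ends, and the ranges of most neighbours overlap.

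In the AKP lines, 18 of the 32 genes fell and 1 rose in TGF-β medium against full medium. Over all 13725 genes tested, 52.6% were called, 27% as higher and 25.7% as lower. The median log2 change of the 32 genes was -0.53, against 0.02 over all genes, and 4 of the 32 changes were above 0. The falls covered 5 of 8 mevalonate genes, 5 of 11 genes from squalene to cholesterol, 1 of 4 regulators and transporters, and 7 of 9 fatty acid genes. For 14 of the 32, all 4 libraries in TGF-β medium lay below all 4 in full medium, which held for 18.3% of all genes tested. In bulk RNA such as this, fewer cells of a type and less RNA per cell cannot be told apart.

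Among the mevalonate genes, the largest fall was that of Pmvk, phosphomevalonate kinase. Pmvk had 445 and 601 normalised reads in MTO54 and 671 and 644 in MTO220 in TGF-β medium, against 1044 and 1410.3 in MTO54 and 1471 and 1165 in MTO220 in full medium (pool 1, then pool 2, here and below). Every library in TGF-β medium was below every library in full medium, with a log2 change of -1.11 ± 0.17 (SE, n = 4 against 4; limma, adjusted p = 4.36e-04). Fdps had 5054 and 6256 in MTO54 and 6905 and 6111 in MTO220 in TGF-β medium, against 10103 and 12353 in MTO54 and 17969 and 11654 in MTO220 in full medium. Its groups did not overlap either (-1.07 ± 0.17, adjusted p = 6.39e-04 by limma), with the uncertainty over its shared sequence given above. Mvd, which decarboxylates mevalonate diphosphate (-1.03), Mvk, mevalonate kinase (-0.95), and Acat2 (-0.85) fell as well. Acat2 shares 45.9% of its 50-base windows with its neighbour Acat3, for which the change was -1.24, so the reads of the pair may be mixed. Hmgcs1, with the sterol element, stood at 5288 ± 679.9 normalised reads in TGF-β medium and 6064 ± 601 in full medium (SD, n = 4 each; log2 change -0.20, adjusted p = 0.221 by limma). Idi1, the isopentenyl diphosphate isomerase, did not pass (-0.37; limma, adjusted p = 0.124). It was called lower by limma without MTO54 in full medium of pool 2 (-0.57, adjusted p = 0.00603), and by edgeR (adjusted p = 0.00466) and DESeq2 (adjusted p = 1.20e-04), which lack that library. Ggps1, at 0.48, did not pass. Of its 50-base windows, 11.8% occur in other annotated genes, 5.0% in Arid4b on the opposite strand. Arid4b was called higher in TGF-β medium (1.46) and without EGF (1.24), and these libraries do not mark strand. Its part in the values of Ggps1, here and below, was not tested.

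On the way from squalene to cholesterol, the largest fall was that of Lss, lanosterol synthase, which closes the sterol rings. Lss had 1056 and 1003 normalised reads in MTO54 and 662 and 807 in MTO220 in TGF-β medium, against 1929.7 and 2629 in MTO54 and 3059 and 2977 in MTO220 in full medium. The groups were apart in both lines, by a wider margin in MTO220 (log2 change -1.59 ± 0.20; limma, adjusted p = 1.52e-04). Nsdhl, which removes the carboxyl group in sterol demethylation (-1.03), Dhcr7, a reductase of the last steps (-0.91), Ebp, a sterol isomerase (-0.79), and Sqle, squalene epoxidase (-0.49), fell too. Hsd17b7, which acts in the same demethylation as Nsdhl, was the gene that rose. It had 958 and 708 in MTO54 and 1784 and 1798 in MTO220 in TGF-β medium, against 719.7 and 542 in MTO54 and 629 and 802 in MTO220 in full medium. The MTO220 libraries in TGF-β medium stood high, while MTO54 in TGF-β medium overlapped the range of full medium (log2 change 0.87 ± 0.22; limma, adjusted p = 0.00754). In MTO54 alone Hsd17b7 was not called (0.40, adjusted p = 0.316 by limma). The sterol desaturase Sc5d (0.35), Fdft1, squalene synthase (-0.15), Cyp51, the lanosterol demethylase (-0.12), Tm7sf2, a sterol reductase (-0.12), and Msmo1, the methylsterol monooxygenase (-0.29), did not pass.

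Of the regulators and transporters, Stard4, a carrier of cholesterol between membranes, fell in TGF-β medium (-0.87 ± 0.15; limma, adjusted p = 9.53e-04), and all 4 libraries in TGF-β medium lay below those in full medium. Srebf2 (-0.23), Srebf1 (-0.34) and Insig1, which retains the SREBP precursors (-0.29), did not pass. The fatty acid genes with the largest falls were desaturases. Fads2, which starts the desaturation of polyunsaturated fatty acids, had 1315 and 980.3 normalised reads in MTO54 and 1179.9 and 1106 in MTO220 in TGF-β medium, against 3702 and 3218 in MTO54 and 4052 and 4011 in MTO220 in full medium. The groups were far apart, and the change was similar in both lines (-1.71 ± 0.14; limma, adjusted p = 1.17e-05). Fads1, which acts later on the same fatty acids and lies beside Fads2 on chromosome 19, had 1969 and 1722 in MTO54 and 1717 and 1617 in MTO220 in TGF-β medium, against 3857 and 5648 in MTO54 and 4100.3 and 4592 in MTO220 in full medium. Its groups did not overlap (-1.36 ± 0.15; limma, adjusted p = 6.12e-05). Scd1, which makes oleate from stearate, had 5023 and 3482 in MTO54 and 2048 and 2063 in MTO220 in TGF-β medium, against 8973 and 11714 in MTO54 and 5176 and 6976 in MTO220 in full medium. The highest library in TGF-β medium was just under the lowest in full medium (-1.42 ± 0.17; limma, adjusted p = 1.19e-04). Elovl6, which elongates palmitate (-0.84), Fasn, fatty acid synthase (-0.68), Acaca, acetyl-CoA carboxylase (-0.57), and Acly, ATP citrate lyase (-0.45), fell. Scd2 (-0.44) and Me1, the malic enzyme that supplies NADPH (0.10), did not pass. Of the 50-base windows of Acaca, 52.6% also occur in the annotated gene Gm5182.

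The call of Acly was lost without either MTO220 library in TGF-β medium, without MTO54 in TGF-β medium of pool 2 or without MTO220 in full medium of pool 2 (adjusted p 0.0704 to 0.103) and with the pool as a block (adjusted p = 0.0537), and that of Acaca without MTO220 in full medium of pool 2 (adjusted p = 0.0509), all by limma. In MTO54 alone 14 of the 32 genes fell and 0 rose (background 13.3% lower and 14.3% higher), and in MTO220 alone 17 fell and 4 rose, Hsd17b7, Ggps1, Sc5d and Me1 (29% and 32.9%). Ggps1 was also called higher without MTO54 in full medium of pool 1 (0.66; limma, adjusted p = 0.00949) and with values scaled to the library total, where 16 genes fell (background 21.3% lower and 31.1% higher). Scd2 was called lower without MTO220 in full medium of pool 1 (adjusted p = 0.0223), and Srebf1 without MTO54 in full medium of pool 1 or with TMM scaling (adjusted p = 0.0347 and 0.0442, all by limma). With 1 library per line and medium, pool 1 alone gave 14 falls and 0 rises (13.5% and 14.5%), and pool 2 alone gave 7 falls and 0 rises (7% and 7.36%). Of 15 S-phase genes, 14 fell in the same libraries, with a summed level of 25919 to 44825 normalised reads in TGF-β medium against 68802 to 86402 in full medium. The part of S-phase RNA in the changes above was not tested.

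**Figure D2:**
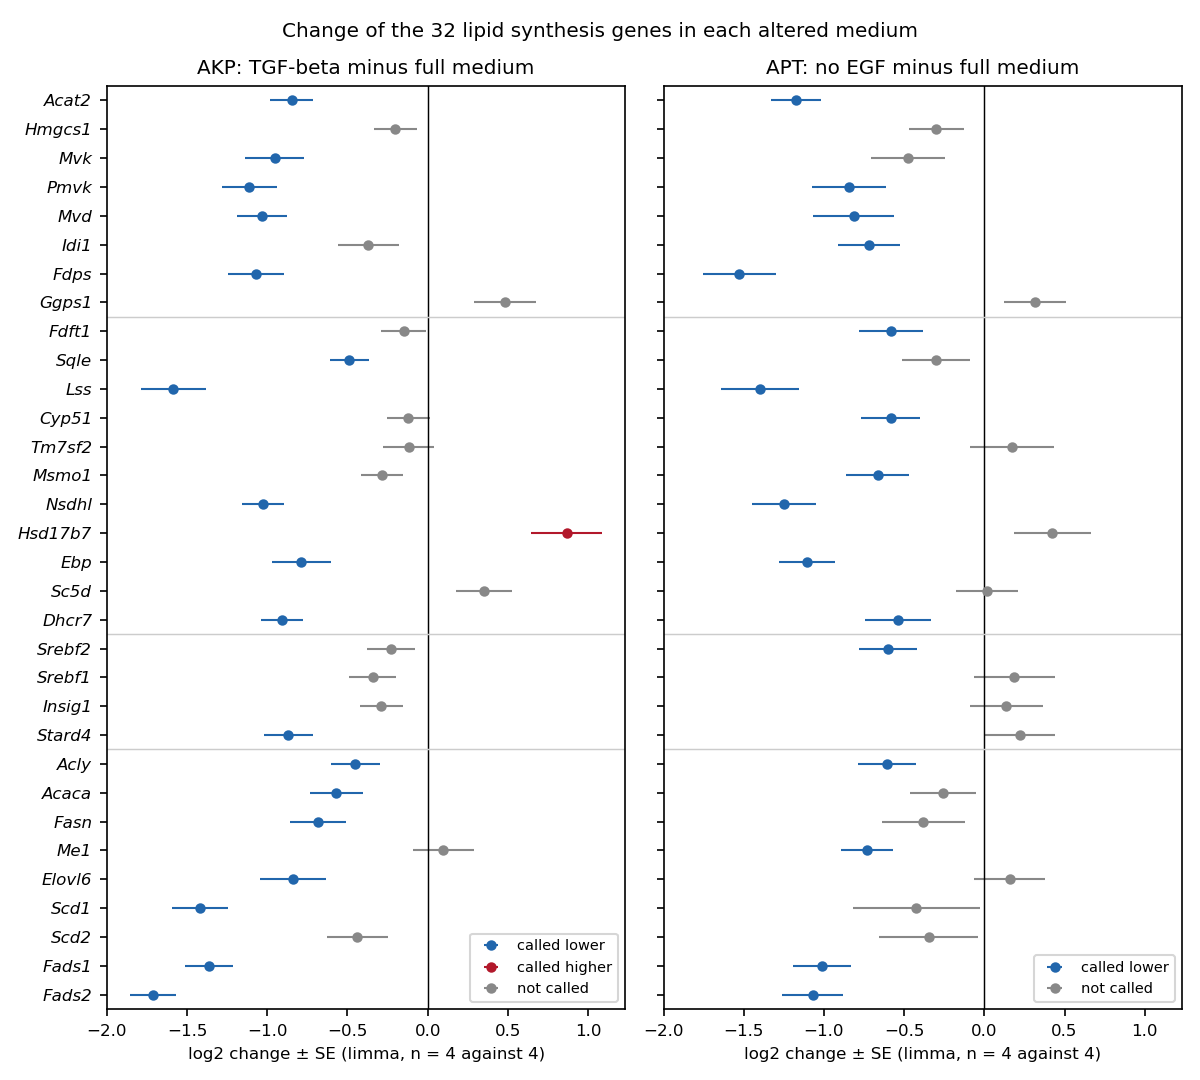
Log2 change ± SE (limma, 4 libraries against 4) of each gene in TGF-β medium minus full medium in the AKP lines (left) and without EGF minus full medium in the APT lines (right), grouped by role. In the left panel 18 genes are called lower and Hsd17b7 higher, and in the right panel 17 are called lower.

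In the APT lines, 17 of the 32 genes fell and 0 rose without EGF against full medium, by limma and likewise by edgeR and DESeq2 on the recovered reads. At an unadjusted p under 0.05 there were again 17 of the 32, against 55.8% of all genes. Over all 14373 genes tested, 48.5% were called, 26.8% as higher and 21.7% as lower. The median log2 change of the 32 was -0.56, against 0.08 over all genes, and 8 of the 32 changes were above 0. The falls covered 5 of 8 mevalonate genes, 7 of 11 genes from squalene to cholesterol, 1 of 4 regulators and transporters, and 4 of 9 fatty acid genes. For 13 genes all 4 libraries without EGF lay below all 4 in full medium, which held for 16.9% of all genes tested.

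Fdps had the largest fall. It had 3691 and 3904 normalised reads in MTO100 and 4495 and 3660.3 in MTO101 without EGF, against 11445 and 16624 in MTO100 and 11919 and 7221 in MTO101 in full medium. The 4 libraries without EGF lay close together and below all others (-1.53 ± 0.23; limma, adjusted p = 3.38e-04). Acat2 had 2227 and 2223 in MTO100 and 2514 and 2037 in MTO101 without EGF, against 5193 and 5553 in MTO100 and 5311 and 4306 in MTO101 in full medium. Its groups were apart in both lines (-1.18 ± 0.16; limma, adjusted p = 1.70e-04), and Acat3, with which it shares sequence, changed by -1.50. Pmvk (-0.84), Mvd (-0.81) and Idi1 (-0.72) completed the mevalonate genes that fell, while Mvk (-0.48), Hmgcs1 (-0.30) and Ggps1 (0.32) did not pass.

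Lss had 708 and 518 in MTO100 and 849.7 and 652 in MTO101 without EGF, against 2199 and 2651 in MTO100 and 1350.3 and 1253 in MTO101 in full medium. The groups did not overlap, and MTO101 was low in full medium already (-1.40 ± 0.24; limma, adjusted p = 8.74e-04). Nsdhl had 1466 and 914 in MTO100 and 1879 and 1233 in MTO101 without EGF, against 3134 and 3233 in MTO100 and 3229 and 3039 in MTO101 in full medium. Its full-medium values were nearly level, and all values without EGF lay below them (-1.25 ± 0.20; limma, adjusted p = 5.53e-04). Ebp had 888 and 1092 in MTO100 and 1026 and 957 in MTO101 without EGF, against 2196 and 2466 in MTO100 and 2368 and 1595 in MTO101 in full medium. Again the groups were apart (-1.11 ± 0.17; limma, adjusted p = 4.51e-04). Msmo1 (-0.67), Fdft1 (-0.58), Cyp51 (-0.58) and Dhcr7 (-0.54) fell by less. Of the windows of Fdft1, 30.7% occur elsewhere, mostly in Ctsb on the opposite strand, which was called higher without EGF (0.81), and these libraries do not mark strand. Hsd17b7 (0.42), Tm7sf2 (0.17), Sc5d (0.02) and Sqle (-0.30) did not pass.

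Srebf2 was the regulator that fell without EGF, to 4619 ± 320.4 normalised reads, against 7193 ± 1828 in full medium (SD, n = 4 each; -0.60 ± 0.18; limma, adjusted p = 0.0175). Its groups overlapped: MTO101 in full medium of pool 1, at 4771, lay within the range of the libraries without EGF. Stard4 (0.22), Srebf1 (0.19) and Insig1 (0.14) did not pass. Among the fatty acid genes, Fads2 had 1713 and 1290.2 in MTO100 and 1839 and 1351 in MTO101 without EGF, against 4043 and 3426 in MTO100 and 2411 and 3196 in MTO101 in full medium. The groups did not overlap (-1.07 ± 0.19; limma, adjusted p = 0.00106). Fads1 (-1.01), Me1 (-0.73) and Acly (-0.61) fell as well. Scd1 (-0.42), Fasn (-0.38), Scd2 (-0.35), Acaca (-0.26) and Elovl6 (0.16) did not pass.

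With values scaled to the library total, which put the median of all genes at 0.31 in place of 0.08, 10 of the 32 genes fell and Ggps1 rose (background 14.4% lower and 35.4% higher), and 5139 genes were called higher and 2086 lower in place of 3849 and 3120. Leaving out MTO100 without EGF of pool 2 left 11 falls and a rise of Hsd17b7 (20.5% and 23.1%), and leaving out both pool 2 libraries without EGF, whose RNA was the most dilute (13.2 and 14.6 ng/µl), left 8 falls and 0 rises (13.7% and 14.4%). Pool 1 alone gave 8 falls and 0 rises (15.4% and 17%), and pool 2 alone gave 10 falls and 0 rises (8.44% and 11.7%). The calls of Fdft1 and Cyp51 were lost without any 1 of the 4 MTO100 libraries, and that of Fdft1 also without MTO101 lacking EGF of pool 2 (adjusted p 0.0667 to 0.0957 for Fdft1 and 0.0599 to 0.0739 for Cyp51 by limma). Dhcr7 was lost without any 1 of the same 4, without MTO101 in full medium of pool 2 or lacking EGF of pool 2 (adjusted p 0.073 to 0.14), and with the pool as a block (adjusted p = 0.0779 by limma). Acly was lost without MTO100 in full medium of pool 1 or without either pool 2 library lacking EGF (adjusted p 0.057 to 0.0655), Mvd without MTO100 lacking EGF of pool 1 or in full medium of pool 2 (adjusted p 0.0595 to 0.068), and Msmo1 and Srebf2 without MTO100 lacking EGF of pool 2 (adjusted p = 0.0517 and 0.0573, all by limma). Fasn, Scd2 and Acaca were called lower without MTO101 in full medium of pool 1 (adjusted p 0.0198 to 0.0416), and Mvk without the same of pool 2 (adjusted p = 0.0158, all by limma). All 15 S-phase genes fell without EGF, with a summed level of 12477 to 27182 normalised reads against 59712 to 79513 in full medium, and their part in the changes above was not tested.

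**Figure D3:**
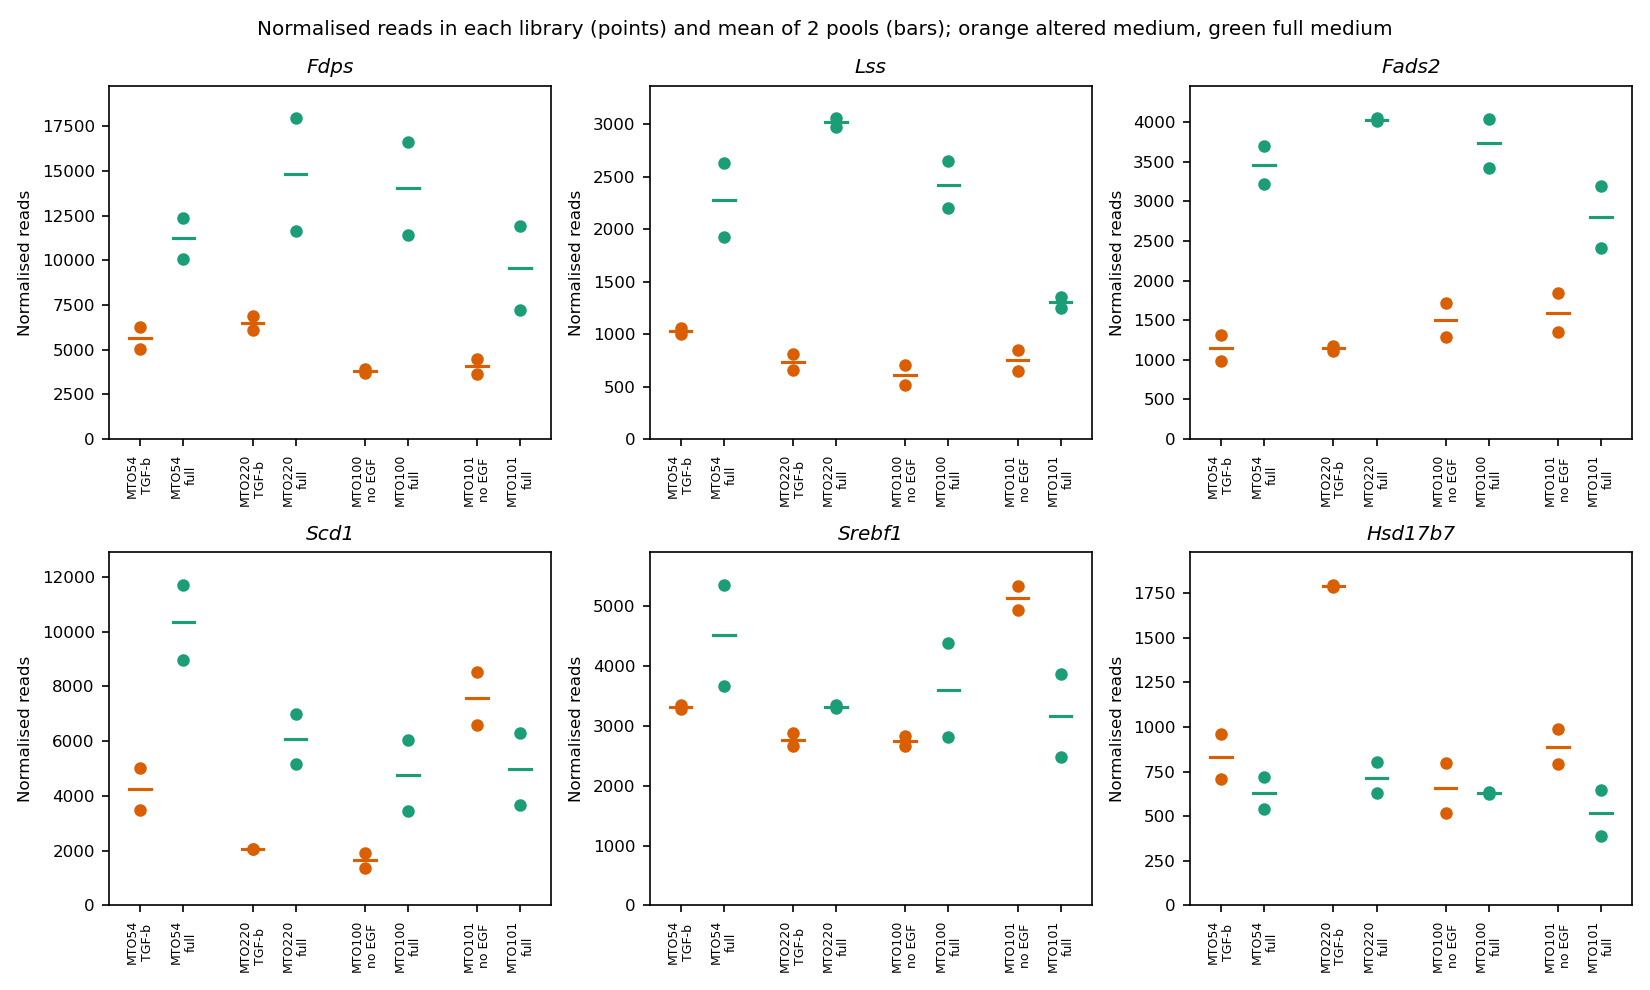
Normalised reads in each library (points) and the mean of 2 pools (bars) for 6 genes, altered medium in orange left of full medium in green within each line. Fdps, Lss and Fads2 were lower in altered medium in all 4 lines, Scd1 and Srebf1 stood higher without EGF in MTO101, and Hsd17b7 stood highest in MTO220 in TGF-β medium.

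Set side by side, 11 genes fell in both media: Acat2, Pmvk, Mvd and Fdps of the mevalonate pathway, Lss, Nsdhl, Ebp and Dhcr7 of the sterol steps, and Acly, Fads1 and Fads2. The share of all genes called lower in both media, or in only 1, was not counted. Of all genes tested, 25.7% were called lower in TGF-β medium and 21.7% without EGF. Mvd, Dhcr7 and Acly lost their call without EGF with library-total scaling (adjusted p = 0.0635, 0.266 and 0.117 by limma). A further 7 fell in TGF-β medium and did not pass without EGF: Mvk, Sqle, Stard4, Acaca, Fasn, Elovl6 and Scd1. Another 6 fell without EGF and did not pass by limma in TGF-β medium: Idi1 (with the exceptions given above), Fdft1, Cyp51, Msmo1, Srebf2 and Me1. The 7 called in neither were Hmgcs1, Ggps1, Tm7sf2, Sc5d, Srebf1, Insig1 and Scd2. These counts do not show which responses differ, so the difference of the responses was tested in all 16 libraries, where 22.2% of 15087 genes were called and 3 of the 32 were. Lines, genotype and medium differ together between the AKP and APT cultures and cannot be told apart in that difference.

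Stard4 gave the smallest p of the difference. It had 1603 and 1185 normalised reads in MTO54 and 1070.1 and 1066 in MTO220 in TGF-β medium, against 2711 and 2227 in MTO54 and 1791 and 2234 in MTO220 in full medium. It had 2761 and 1697 in MTO100 and 2804 and 2382 in MTO101 without EGF, against 2619 and 2158 in MTO100 and 1499 and 1995 in MTO101 in full medium. The groups were apart in the AKP lines and overlapped in the APT lines, with a difference of the log2 changes, AKP minus APT, of -1.09 ± 0.27 (limma, adjusted p = 0.00915). That call held without each single library. Me1 had 2367 and 2465 in MTO54 and 2711 and 2471 in MTO220 in TGF-β medium, against 2707 and 3488 in MTO54 and 1770.2 and 1782 in MTO220 in full medium. Without EGF it had 993 and 731 in MTO100 and 812 and 786 in MTO101, against 1484 and 1432 in MTO100 and 1447 and 1143 in MTO101 in full medium. Me1 was higher in TGF-β medium in MTO220, lower in MTO54 and lower without EGF in both APT lines (difference 0.83 ± 0.25; limma, adjusted p = 0.0248). Me1 shares 32.8% of its windows with other annotated genes. Its call was lost with the pool as a block (adjusted p = 0.0535), without any 1 of the 4 MTO220 libraries and without MTO100 in the medium lacking EGF of pool 2 (adjusted p 0.0541 to 0.0662, all by limma).

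Elovl6 had 1432 and 1128 in MTO54 and 798 and 879 in MTO220 in TGF-β medium, against 2835 and 1524 in MTO54 and 1412 and 1913 in MTO220 in full medium. Without EGF it had 974 and 957 in MTO100 and 2590.3 and 2951 in MTO101, against 1389.8 and 1024 in MTO100 and 1479 and 2184 in MTO101 in full medium. It was lower in altered medium in 3 lines and higher in MTO101 (difference -1.0 ± 0.32; limma, adjusted p = 0.0365). The call held without 6 of the 16 libraries and was lost without any 1 of the other 10 (adjusted p 0.0502 to 0.0932 by limma): 2 of MTO54 (full medium of pool 1, TGF-β medium of pool 2), 3 of MTO220 (both in TGF-β medium, full medium of pool 2), MTO100 in full medium of pool 2, and all 4 of MTO101. Fads2, with larger falls in the AKP lines, gave a difference of -0.64 ± 0.24 that did not pass (adjusted p = 0.0646 by limma). It passed by DESeq2 (adjusted p = 0.0388), with values scaled to the library total (adjusted p = 0.0494), and by limma without MTO100 in full medium of pool 1, MTO100 lacking EGF of pool 2 or MTO54 in TGF-β medium of pool 1 (adjusted p 0.0272 to 0.0439). Scd1 (-1.0) did not pass, and was called without MTO100 in full medium of pool 2 (-1.37; limma, adjusted p = 0.0305).

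**Figure D4:**
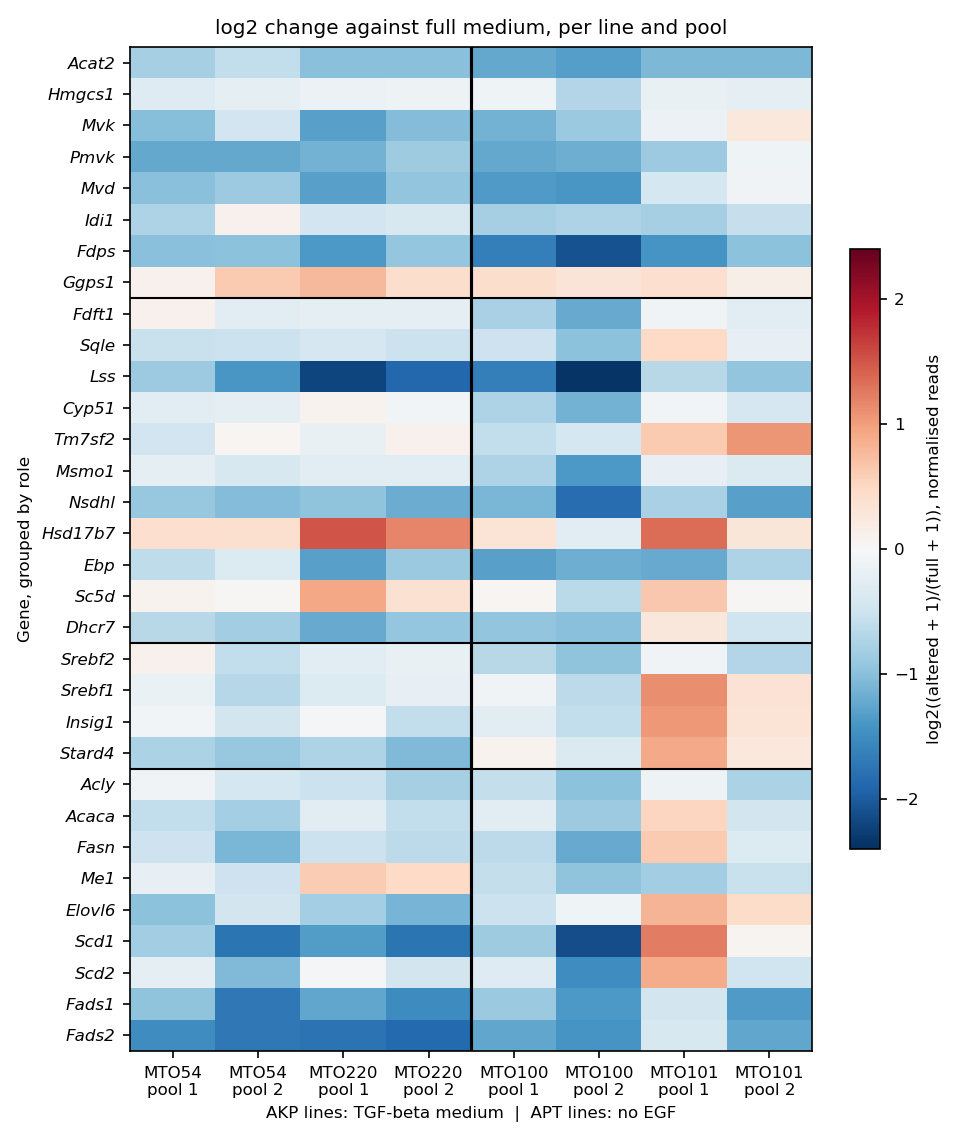
Log2 change against full medium of each gene (rows, by role) in each line and pool (columns), TGF-β medium for the AKP lines on the left and no EGF for the APT lines on the right. Acat2, Hmgcs1, Pmvk, Mvd, Fdps, Lss, Msmo1, Nsdhl, Ebp, Acly, Fads1 and Fads2 are below 0 in all 8 columns. The share of all genes below 0 in all 8 was not counted. The MTO101 columns hold more values above 0 than those of any other line.

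Within the APT lines the responses of the 32 genes lay apart. In MTO100 without EGF 30 of the 32 changes were below 0 with a median of -0.91, and in MTO101 18 of 32 with a median of -0.19. In MTO100 alone 22 genes fell and 0 rose (background 15.2% lower and 20.9% higher), and in MTO101 alone 8 fell and Tm7sf2 rose (16.3% and 21.3%). The difference of the log2 changes, MTO101 minus MTO100, was above 0 for 31 of the 32 genes, against 47.2% of the 14373 genes tested, with a median of 0.71 against -0.04. The test of that difference called 1 of the 32, Scd1 (2.34% of all genes called), and had 14 at an unadjusted p under 0.05 (15% of all genes). DESeq2 on the recovered reads called Scd1, Tm7sf2 and Lss, and edgeR called 0.

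Scd1 had 8527 and 6595 normalised reads in MTO101 and 1910.3 and 1377 in MTO100 without EGF, against 3658 and 6281 in MTO101 and 3444 and 6053 in MTO100 in full medium. MTO101 was higher without EGF in both pools, and MTO100 was lower in both (difference 2.14 ± 0.48; limma, adjusted p = 0.0445). That call was lost with the pool as a block (adjusted p = 0.0863 by limma), with the library total as scale and by edgeR. It was also lost without MTO100 in full medium of pool 2 or without any 1 of the 4 libraries lacking EGF (adjusted p 0.107 to 0.194 by limma). Tm7sf2 had 2658 and 2660.3 in MTO101 and 1216 and 1663 in MTO100 without EGF, against 1719 and 1269 in MTO101 and 1831 and 2231 in MTO100 in full medium (difference 1.35 ± 0.34; limma, adjusted p = 0.0686). Insig1 had 3297 and 2651 in MTO101 and 1874 and 1579.5 in MTO100 without EGF, against 1599 and 2108 in MTO101 and 2222 and 2369 in MTO100 in full medium (difference 1.1 ± 0.32; limma, adjusted p = 0.111). For Lss, whose values are given above, the difference was 1.19 ± 0.34 (limma, adjusted p = 0.104), lower without EGF in both lines and by less in MTO101. Tm7sf2, Srebf1, Insig1, Elovl6 and Scd1 were above 0 in both pools of MTO101 and below 0 in both pools of MTO100, 5 of the 32, against 4.27% of all genes tested. Without MTO101 in full medium of pool 1 the test called 3 of the 32 (3.15% of all genes), and without the same of pool 2 it called 7 (6.92%). The counts without the other libraries ran from 0 to 1 (80 to 187 of all genes). The S-phase genes lay lower in MTO101 than in MTO100 in the same difference (15 of 15 below 0, 0 called, median -0.78), and their part was not tested.

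Between the AKP lines, the difference of the responses, MTO220 minus MTO54, was called for 0 of the 32 genes by limma (8.2% of 13725 genes called, 3 of the 32 and 23.3% of all genes at an unadjusted p under 0.05). On recovered reads, which leave out MTO54 in full medium of pool 2, edgeR called Lss, and DESeq2 called Lss and Hsd17b7. Me1 gave 0.89 ± 0.26 (limma, adjusted p = 0.0591), Lss -0.91 ± 0.28 (adjusted p = 0.0756) and Hsd17b7 0.93 ± 0.32 (adjusted p = 0.107), with their values in each library above. Sc5d, next by p, had 1867 and 1819 normalised reads in MTO220 and 1373 and 1233 in MTO54 in TGF-β medium, against 975 and 1406 in MTO220 and 1299 and 1214 in MTO54 in full medium (difference 0.60 ± 0.29; limma, adjusted p = 0.24). Me1 was called without MTO54 in full medium of pool 1 (adjusted p = 0.0125), and Lss without MTO54 in full medium of pool 2 (adjusted p = 0.0248, both by limma).

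In full medium AKP and APT were compared on line means, 2 against 2, and 0 of the 32 genes, like 0 of all 13898 tested, were called by limma (background 0%). At an unadjusted p under 0.05 there were 3 of the 32 and 10.6% of all genes. The log2 difference, AKP minus APT, was above 0 for 27 of the 32 with a median of 0.18, against 0.00 over all genes. Insig1 had 3419 and 3824 normalised reads in MTO54 and 2816 and 3411 in MTO220, against the full-medium values of MTO100 and MTO101 above (difference 0.71 ± 0.20; adjusted p = 0.367). Msmo1 had 5335 and 6531 in MTO54 and 5185 and 4865 in MTO220, against 3142 and 4384 in MTO100 and 2256 and 2233 in MTO101 (difference 0.92 ± 0.29; adjusted p = 0.412). Scd2 had 39369 and 56456 in MTO54 and 24832 and 33842 in MTO220, against 18440.1 and 29832 in MTO100 and 13759.8 and 28554 in MTO101 (difference 0.78 ± 0.28; adjusted p = 0.457). Cyp51 had 11056 and 11028 in MTO54 and 7038 and 6871 in MTO220, against 5319 and 6397 in MTO100 and 3376 and 3928 in MTO101 (difference 0.93 ± 0.35; adjusted p = 0.469, all by limma). All AKP libraries were above all APT libraries for Insig1, Msmo1 and Cyp51, and the ranges of Scd2 overlapped. These genes are shown because their p was smallest, and the share of all genes with such a separation was not counted.

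The lines of 1 genotype also differed in full medium. MTO220 was lower than MTO54 for 4 of the 32 genes (17.8% of 13725 genes called, 9.17% as lower): Me1 (-0.79 ± 0.18, adjusted p = 0.0114), Cyp51 (-0.67 ± 0.17, adjusted p = 0.0225), Sqle (-0.61 ± 0.16, adjusted p = 0.0258) and Scd1 (-0.77 ± 0.23, adjusted p = 0.0446), all by limma. Sqle, the 1 of these not yet given in full, had 4685 and 5032 in MTO220 and 7368 and 7443 in MTO54. MTO101 was lower than MTO100 for 2 of the 32 (14.1% of 14373 genes called, 7.97% as lower), Fdft1 (-0.92 ± 0.22, adjusted p = 0.0155) and Lss (-0.89 ± 0.24, adjusted p = 0.0273), by limma. Fdft1 had 3169.5 and 2802 in MTO101 and 5120.5 and 6219 in MTO100, so that both MTO101 libraries were low. Msmo1 (-0.73 ± 0.22, adjusted p = 0.0503) and Cyp51 (-0.68 ± 0.21, adjusted p = 0.0575) were next by p and did not pass by limma. These 6 calls rest on 2 libraries a line. The call of Scd1 was lost with library-total scaling (-0.75; limma, adjusted p = 0.075) and without MTO54 in full medium of pool 2 (-0.58). That of Lss was lost without MTO100 in full medium of pool 1 (-1.03). Without MTO101 in full medium of pool 1, the genes called included Elovl6, which was higher in MTO101 (0.87). Leaving out MTO220 in full medium of pool 1 left 0 of the 4, of pool 2 left 2, and either MTO220 library in TGF-β medium, which enter through the spread, left 1. Of all genes, 1375, 1721, 1736 and 1740 were called in these fits, in place of 2449. Leaving out MTO100 in full medium of pool 2 left 0 of the 2 (1333 of 14136 genes called). Leaving out MTO101 in full medium of pool 1 or pool 2 gave 4 and 5 genes (13.6% and 18.8% of all genes).

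Other genes around these pathways, on lists drawn up by function, were read in the same fits. Of 10 genes of the prenyl branch, 6 fell in TGF-β medium and 5 without EGF (25.7% and 21.7% of all genes), and 0 rose in either. Pdss1, a subunit of the enzyme that makes the ubiquinone side chain, had 149 and 139 normalised reads in MTO54 and 123 and 105 in MTO220 in TGF-β medium, against 476 and 258 in MTO54 and 733 and 694 in MTO220 in full medium (-1.96 ± 0.30; limma, adjusted p = 4.07e-04). Without EGF it changed by -1.57 ± 0.24 (limma, adjusted p = 4.09e-04). Fntb, a farnesyltransferase subunit (-0.97 in TGF-β medium, -0.74 without EGF), and Dhdds, a subunit of the dolichol-making transferase (-1.05, -0.54), fell in both. Of 4 further genes of sterol synthesis 3 fell in each medium, among them Acat1, the mitochondrial thiolase, which fell in both (-0.87 and -0.92).

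Of 8 tested genes of sterol efflux and esterification, 2 rose and 1 fell in TGF-β medium, near the shares over all genes (27% and 25.7%), and 4 rose and 0 fell without EGF (26.8% and 21.7%), with medians of 0.52 and 0.77. Abca1, the cholesterol efflux pump and a classical target of the liver X receptors, had 382 and 323 in MTO100 and 1722 and 1682 in MTO101 without EGF, against 19.1 and 62.6 in MTO100 and 35.7 and 201 in MTO101 in full medium. All libraries without EGF lay above the others (3.80 ± 0.50; limma, adjusted p = 1.57e-04). In TGF-β medium it had 403 and 293 in MTO54 and 366 and 506 in MTO220, against 111 and 382 in MTO54 and 6.90 and 19.5 in MTO220 in full medium (2.91 ± 0.79; limma, adjusted p = 0.0104). MTO54 in full medium was high in pool 2, so that the line's pools went opposite ways. Mylip, the ubiquitin ligase that degrades lipoprotein receptors, rose in both (2.10 in TGF-β medium, 1.90 without EGF). Abcg1, another efflux pump, rose without EGF (1.90) and did not pass in TGF-β medium (1.24), where the lines went opposite ways. MTO54 had 201 and 215 normalised reads of Abcg1 in TGF-β medium, against 233 and 347 in full medium. MTO220 had 335 and 302, against 29.9 and 56.0. Of the 8 genes, 2 were called, both higher, in the difference of the responses, MTO220 minus MTO54 (8.2% of all genes called). Soat1, which esterifies cholesterol, fell in TGF-β medium (-0.70) and did not pass without EGF (-0.20).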

How the data were processed

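Per the labels' protocols, organoids were lysed in Trizol, and column-purified RNA was enriched for poly(A) before library preparation with an unstranded kit and 9 to 10 cycles of PCR. STAR 2.3.0e, DESeq2 1.22.1 and mm10 appear in the submitters' processing notes, while the counting program and the annotation are not given in the sources used here. The authors deposited 1 table of signal values, read counts divided by a size factor: 100% of values in each column are whole multiples of a step within 0.001, from which reads were recovered. In MTO54 in full medium of pool 2 that step (0.992) is too near 1 to be told from rounding by the unit check, so this library entered no count test. Gene symbols came from RefSeq (GRCm38.p6) for 25275 of 27179 IDs (93.0%).

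A gene entered a comparison when at least 4 of its libraries (2 of the lines for AKP against APT) reached 10. The test ran on log2(value + 1) with limma-trend and robust empirical Bayes (limma 3.58.1, R 4.3.3), a term for the line, Benjamini-Hochberg adjustment over all genes and a call at adjusted p under 0.05, two-sided. The design had assumed this test for normalised values. Alternatives used edgeR 4.0.16 and DESeq2 1.42.0 on recovered reads, other scaling, pseudocounts of 0.5 and 5, no filter, the pool as a block and omitted libraries; lines and pools alone and omission of both dilute libraries included 3 alternatives chosen after seeing the data. The pool number pairs libraries by the labels; deviations of pool 2 from pool 1 correlated between the media of a line across 15087 genes at 0.0385 (MTO54), 0.171 (MTO220), 0.174 (MTO100) and 0.127 (MTO101). The first MTO54 library is titled replicate 1 and labelled pool 1. The 32 genes and the other lists were chosen with earlier results of these data known. All 32 genes are named; values in every library are given for up to 6 rising and 6 falling called genes with 1 direction in all 4 pairs per medium, and for the 4 smallest p in each other comparison. From the other lists up to 4 genes with the smallest p were eligible, not all of which are reported here. Fits were tested on simulated data with known changes. Shared sequence was counted over 50-base windows of GENCODE M21 transcripts.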

Additional observations from a re-analysis of the deposited data

Results flagged for a closer look

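In the groups of 4 libraries with 1 genotype and medium, 4 of 128 checks of a gene found a library apart from the other 3 by Dixon's test, fewer than the about 1 in 20 that chance gives. Ggps1 was at 582 normalised reads in MTO54 in full medium of pool 1, above the other AKP libraries in full medium. Srebf2 was at 13342 normalised reads in MTO54 in full medium of pool 2, also above the others. Hsd17b7 was at 388 normalised reads in MTO101 in full medium of pool 1, below the other APT libraries in full medium. Me1 was at 1143 in MTO101 in full medium of pool 2, again below the others.

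The response differed between the AKP and APT lines for Stard4 (difference of log2 changes -1.09), Elovl6 (-1.0) and Me1 (0.83) by the test of the difference, AKP minus APT. It differed between the APT lines for Scd1 (2.14, MTO101 minus MTO100). The call of Stard4 held without each single library, while those of Elovl6, Me1 and Scd1 were lost in several alternatives given above.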

How the results depend on the processing

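With TGF-β in the AKP lines, 16 to 19 of the 32 genes fell and 1 to 2 rose without each library in turn, 7 fell and 0 rose in pool 2 alone, 0 rose in pool 1 alone or in MTO54 alone, 4 rose in MTO220 alone, and 2 rose with library-total scaling. Over all genes the omissions of 1 library gave 2761 falls and 2674 rises of 13290 at the fewest, and 3754 and 3980 of 13543 at the most. Without EGF in the APT lines, 11 to 20 fell and 0 to 1 rose without each library. Over all genes these omissions gave 2318 falls and 2682 rises of 13972 at the fewest, and 3282 and 3912 of 14198 at the most. In the APT lines 10 of the 32 fell and 1 rose (11 called) with library-total scaling, 8 fell and 1 rose (9 called) in MTO101 alone, 8 fell in pool 1 alone, 10 in pool 2 alone, and 8 without both pool 2 libraries lacking EGF. The difference of the AKP and APT responses was called for 1 to 4 of the 32 genes without each library, with 1 where MTO220 in TGF-β medium of either pool or in full medium of pool 2 was left out. Over all genes it was called for 2452 of 14852 to 3445 of 15038. The difference between the AKP lines was called for 0 to 1 (343 to 2384 of all genes), for 1 by edgeR (1044) and 2 by DESeq2 (1320). That between the APT lines was called for 0 to 7 (80 to 982 of all genes). It was called for 0 with library-total scaling (230), the replicate block (281) or edgeR (335), and for 3 by DESeq2 (640). In full medium 0 to 6 of the 32 were called between the AKP lines (1375 to 3077 of all genes) and 0 to 5 between the APT lines (1331 to 2672). No called gene changed direction between media in these alternatives, but 3 of the 13 genes not called in the AKP lines and 12 of the 15 in the APT lines did in at least 1. Me1 was at -0.35 in MTO54 alone against 0.10 in both AKP lines, and Scd1 was at 0.65 in MTO101 alone and 0.19 in pool 1 alone against -0.42 in both APT lines. The causes were not tested.

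With the pool of each line as a replicate block, 18 of the 32 genes were called in the AKP lines, 16 in the APT lines and 2 for the difference of the responses. Of all genes the block called 6568 of 13725, 6712 of 14373 and 2698 of 15087, in that order. Besides Acly, Dhcr7, Me1 and Scd1 the block changed no other call among the 32. Over all genes, 7226 were called in the AKP lines, against 3782 in MTO54 alone, 3876 in pool 1 alone and 1994 in pool 2 alone. In the APT lines 6969 were called, against 2961 in pool 2 alone and 3804 without both pool 2 libraries lacking EGF. Between the APT responses 337 were called, against 640 by DESeq2. The count tests in the AKP lines lack 1 library, MTO54 in full medium of pool 2, so there they differ from limma in libraries as well as in method. Reads per library of 17056053 to 22251986 leave counting error small for the 32 genes, and 2 libraries per line and medium limit the precision.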

Other observations

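Genes that sense and take up sterols were called in both directions, as were all genes tested. Over all genes, 27% rose and 25.7% fell in TGF-β medium, and 26.8% rose and 21.7% fell without EGF. Of 8 genes of SREBP processing, 2 rose and 2 fell in TGF-β medium, near those shares, and 2 rose and 0 fell without EGF. Scap, the escort of the SREBP precursors, fell in TGF-β medium (-0.46) and did not pass without EGF (-0.03), and Insig2, a relative of Insig1, rose without EGF (0.72) and did not pass in TGF-β medium (0.13). Of 9 genes of sterol uptake and transport, 3 rose and 4 fell in TGF-β medium, and 2 rose and 1 fell without EGF. Scarb1, a lipoprotein receptor, fell in TGF-β medium (-0.66) and without EGF (-1.51). Its values without EGF were 431 and 387 normalised reads in MTO100 and 402 and 363 in MTO101, against 1175 and 1098 in MTO100 and 1176 and 1054 in MTO101 in full medium. Gramd1a, which moves cholesterol from the plasma membrane, rose in both (1.81 in TGF-β medium, 0.75 without EGF).

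Of 15 other fatty acid genes, 4 rose and 6 fell in TGF-β medium (27% and 25.7% of all genes). Without EGF 3 rose and 4 fell (26.8% and 21.7% of all genes). Mlxipl, which encodes the carbohydrate response factor ChREBP, had 7.95 and 9.03 normalised reads in MTO54 and 16.1 and 14.3 in MTO220 in TGF-β medium, against 73.2 and 153 in MTO54 and 263 and 304 in MTO220 in full medium (-3.81 ± 0.30; limma, adjusted p = 8.78e-06). Without EGF its change of -1.01 did not pass. Acsl3, an acyl-CoA synthetase, rose in both (1.23 in TGF-β medium, 0.94 without EGF), as did Elovl7, an elongase (0.86, 1.29).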
